A study of Mus musculus with 6 samples.

Results

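The 10 genes described here encode the transcription factor AP-1 and a small set of stress-induced immediate-early proteins: the Fos family (Fos, Fosb, Fosl1, Fosl2), the Jun family (Jun, Junb, Jund), the related factor Atf3, and the early response genes Ier2 and Ier3. They were taken by gene symbol from a deposited table of 23355 mouse gene entries, and all 10 were found. RNA was sequenced from ID4-GFP+ spermatogonia. These are dividing germ cells, here from testis, that express a fluorescent reporter of ID4, a protein that keeps basic helix-loop-helix factors off DNA. There were 3 samples from control mice and 3 from mice with constitutive overexpression of ID4 in germ cells. The reporter is stated for both groups. The promoter or Cre line behind the overexpression, the strain, the age of these mice and whether a sample is 1 animal are not given in the sources used here.

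AP-1 is a dimer of basic leucine zipper proteins, either of 2 Jun proteins or of a Jun and a Fos protein. Its genes are transcribed within minutes of growth factor or stress signals, without new protein synthesis, and most of the transcripts decay quickly. In testis work they matter for a further reason, because enzymatic dissociation of tissue and cell sorting are known to induce them. Proteins with a basic helix-loop-helix domain, the ones ID4 holds away from DNA, bind the E-box motif.

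The promoters of 3 members are shown, because they frame the contrast reported here: Atf3 and Ier3, which were higher with overexpression, and Fos, the most abundant member, which was not called. Each is the 250 bases before the transcription start given by RefSeq, 5′ to 3′ on the strand of the gene, in the build GRCm38.p6. Atf3 is from chr1:191183334-191183583 (minus strand), Ier3 from chr17:35821463-35821712 (plus strand) and Fos from chr12:85473640-85473889 (plus strand). Capitals mark the E-box CANNTG and TGACG, the core of the cAMP response element, the latter searched on both strands so that CGTCA is also a match. The capitals of the 2 motifs do not overlap in these windows.
Atf3: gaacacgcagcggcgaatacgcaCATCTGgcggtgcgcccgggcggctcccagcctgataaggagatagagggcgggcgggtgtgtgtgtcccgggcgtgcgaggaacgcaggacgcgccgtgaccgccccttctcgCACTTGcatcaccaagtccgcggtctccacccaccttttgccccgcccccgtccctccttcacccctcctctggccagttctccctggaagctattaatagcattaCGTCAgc
Ier3: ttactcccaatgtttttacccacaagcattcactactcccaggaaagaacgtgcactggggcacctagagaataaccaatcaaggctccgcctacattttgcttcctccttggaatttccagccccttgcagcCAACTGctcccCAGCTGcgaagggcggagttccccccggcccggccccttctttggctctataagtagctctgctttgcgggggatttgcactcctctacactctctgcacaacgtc
Fos: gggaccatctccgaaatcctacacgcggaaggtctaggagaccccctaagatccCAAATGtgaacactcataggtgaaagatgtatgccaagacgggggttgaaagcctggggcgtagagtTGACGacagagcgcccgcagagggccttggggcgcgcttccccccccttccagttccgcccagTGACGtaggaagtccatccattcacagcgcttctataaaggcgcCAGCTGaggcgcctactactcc

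The windows differ in the response element core and share the E-box. RefSeq promoters were found for 8 of the 10 members, all but Fosl1 and Ier2. TGACG was present in 4 of the 8 (Fos, Fosb, Junb and Atf3), and in 17.8% of 32851 promoter windows of the same length. The Fos window holds it at 129 and at 66 bases before the start, and the Atf3 window holds it, on the opposite strand, from 7 bases before the start. The E-box was present in 7 of the 8, the exception being Fosl2, and in 66.2% of all windows. The whole cAMP response element TGACGTCA, the AP-1 motif TGANTCA and the CArG box of serum response factor were each in 0 of the 8, against 1.55%, 6.75% and 1.47% of all windows, so these letters do not occur in the windows searched. TATAAA, searched on both strands like the others, was found in Fos alone among the members, 33 bases before the start, and in 12.4% of all windows. A match describes the letters and does not show that a factor binds. Sites farther upstream, after the start or with variant letters were not searched, so 0 matches does not show that a gene lacks such an element.

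Levels are given as the authors' FPKM (a fragment count corrected for transcript length and library size), which the deposited table holds as 1 value per group, already combined over its 3 samples. Values per sample were not used here. No member therefore has an SD, and it cannot be said which samples of a group were high or low or whether the groups overlapped. The depth of each library is unknown. The spread between samples enters only through the p-value and the q-value (p adjusted over all tested genes) in the authors' deposited table. Genes with a q of 0.05 or less are called, as higher or lower according to the ratio. The authors tested 10990 entries and 6 of the 10 members: Fos, Fosb, Jund, Atf3, Ier2 and Ier3. Whether the samples come from separate animals is not stated, so the p-values may measure technical spread.

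Before the members, the labels were checked. Id4 was at 6.37 FPKM in controls against 13.4 FPKM in the overexpression group (2.11-fold), with q = 0.000835 in the authors' deposited table. The germ cell gene Ddx4, a helicase that marks the germ line, was at 250.01 and 255 FPKM. Markers of other testis cells were present in both groups and differed between them. The 16 macrophage markers found summed to 91.8 FPKM in controls and 339 FPKM with overexpression, and of 15 tested 14 were called higher and 0 lower. The 15 Sertoli markers summed to 148 and 316 FPKM (7 higher and 0 lower of 11 tested), although Dmrt1 among them is a gene of spermatogonia as well. The 7 Leydig markers summed to 26.4 and 73.6 FPKM (4 higher and 0 lower of 5 tested), and 10 fibroblast and peritubular markers to 21.6 and 48.9 FPKM (2 higher and 0 lower of 3 tested). The last sum was carried by Sparc, at 11.5 and 34.1 FPKM, and the other call was Pdgfra. Acta2 (1.07 and 1.10 FPKM), Tagln (1.45 and 1.39 FPKM) and Myh11 (0.288 and 0.215 FPKM) were untested and showed no such rise. Of 5 endothelial markers, the 1 tested, Egfl7, which overlaps Agpat2 and Gm20532, was lower at 20.98 and 13.7 FPKM. The other 4 (Pecam1, Cdh5, Kdr and Tek) were untested and summed to 2.04 and 3.53 FPKM, with ratios from 1.53 to 2.13. The 11 germ cell markers summed to 2115 and 2013 FPKM, a sum carried by Dazl, Tex101 and Mael, and were not uniform: 4 were called higher (Gfra1, Id4, Etv5 and Ret) and 1 lower (Kit, at 84.3 and 38.1 FPKM) of 11 tested. No marker of these lists was listed at 0 in either group. Over all tested genes, 9.59% were called higher and 7.42% lower. These marker differences belong to the same comparison as every result that follows, and their part in those results was not tested. In such bulk samples, fewer cells of a type and less RNA per cell cannot be told apart.

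Of the 6 tested members, 3 rose with ID4 overexpression and 0 fell. The 3 are Atf3, Ier2 and Ier3, the members that belong to neither the Fos nor the Jun family. Over the whole table, 17.0% of tested genes were called, 9.59% higher and 7.42% lower. The median log2 fold change of the 6 tested members was 0.73, against 0.01 over all tested genes. Among the 10 members, 9 had a higher value with overexpression and Fos alone a lower one, with 4 of these 10 differences never tested. Of the 6 tested members 5 had a higher value, against 51.5% of all tested genes. The members were chosen with earlier results of these data known, so the counts carry no test of the group.

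Atf3 changed most. It encodes a stress-induced factor of the ATF/CREB family that dimerises with Jun proteins and acts mainly as a repressor. Control samples had 1.48 FPKM and overexpression samples 5.12 FPKM. That is a 3.45-fold difference, with q = 0.000835 in the authors' deposited table, where the underlying p of 5e-05 is the smallest listed and is shared by 657 called genes. In controls Atf3 lay above 4.31% of tested genes and with overexpression above 29.99%. Its log2 fold change of 1.79 was larger than that of 98.3% of tested genes. The gene (ENSMUSG00000026628.13) is on chromosome 1 of GRCm38 (191170297 to 191183333, minus strand), and a small RNA gene, Gm24748, overlaps it on the other strand.

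Ier3 and Ier2 rose by similar folds from different levels. Ier3 encodes a short-lived protein that modulates apoptosis and ERK signalling. It was at 16.2 FPKM in controls and 27.8 FPKM in the overexpression group (1.71-fold), with q = 0.00628 in the authors' deposited table. In FPKM this was the widest gap of any member, 11.6 in favour of overexpression. Ier3 (ENSMUSG00000003541.6) is on chromosome 17 (35821713 to 35822911, plus strand), and its next tested neighbour, Flot1, starts 0.446 kb beyond its end.

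Ier2 encodes a nuclear protein induced early by growth factors. It was at 3.50 FPKM in controls and 6.20 FPKM in the overexpression group (1.77-fold), with q = 0.0358 in the authors' deposited table. Ier2 passed the threshold of 0.05 but not a threshold of 0.01, which Atf3 and Ier3 passed. It lies on chromosome 8 (ENSMUSG00000053560.4; 84661331 to 84662852, minus strand), 314 kb from Junb, and no annotated gene overlaps it.

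**Figure D1:**
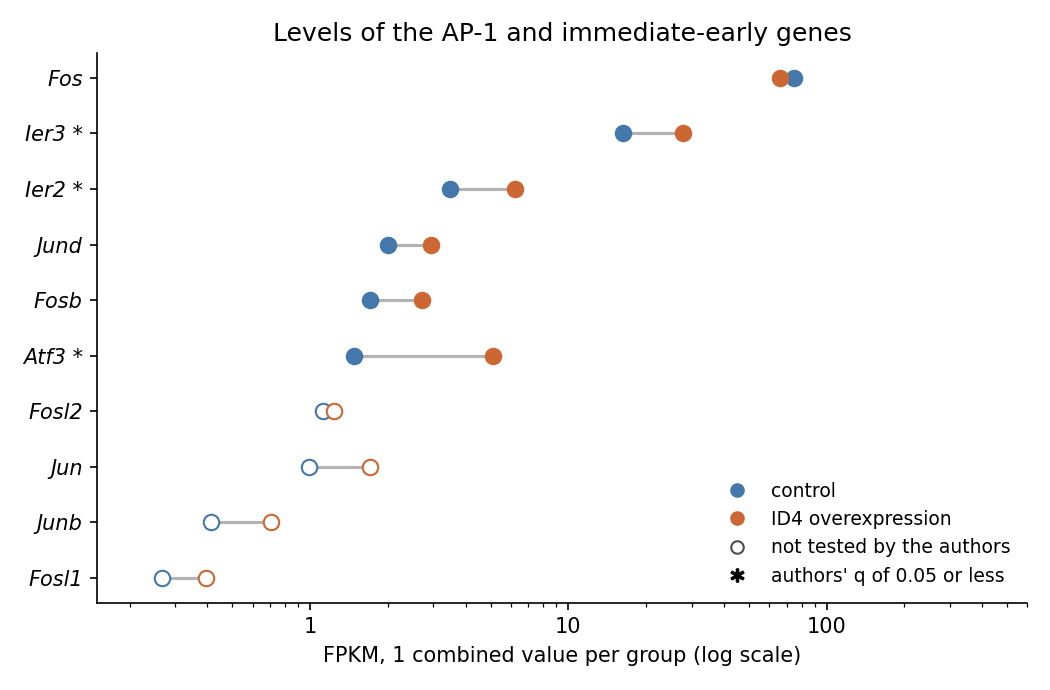
Authors' FPKM of the 10 members on a log scale, 1 combined value per group, in controls (blue) and with ID4 overexpression (orange), ordered by the control level. Open circles are genes the authors did not test and asterisks mark an authors' q of 0.05 or less. Fos stands highest at 74.9 and 65.9 FPKM and is the only member whose orange point lies to the left.

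Fos was by far the most abundant member and was not called. Fos encodes the prototype partner of Jun and is the classical immediate-early gene. It was at 74.9 FPKM in controls and 65.9 FPKM with overexpression, a log2 change of -0.19, with q = 0.553 in the authors' deposited table. This places Fos above 86.6% of tested genes in controls and above 84.9% with overexpression. A q of this size does not show that the groups were alike, and no interval can be given without values per sample. Fos (ENSMUSG00000021250.13) is on chromosome 12 (85473901 to 85477270, plus strand), with no overlapping gene.

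The other tested member of the Fos family was Fosb, known for its long-lived truncated isoform in brain, which a gene-level value does not separate. Fosb was at 1.70 FPKM in controls and 2.72 FPKM with overexpression. The ratio is 1.60, and q was 0.0812 in the authors' deposited table, so it was not called at 0.05 but would be at 0.1. Fosl1 and Fosl2 encode FRA-1 and FRA-2, which lack the strong activation domain of FOS. Fosl2 was at 1.12 and 1.24 FPKM and Fosl1 at 0.268 and 0.397 FPKM, in controls and overexpression, and neither was tested. The Fosl1 interval (chromosome 19, 5447698 to 5457563) is also that of Ccdc85b in the table, which overlaps it on the opposite strand and was at 0.849 and 0.700 FPKM. The use of strand in counting is not stated, so reads of these partners cannot be separated.

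All of the Jun family was low. Jund, the member usually expressed most steadily, was at 2.01 FPKM in controls and 2.95 FPKM with overexpression. The ratio is 1.47, with p = 0.049 and q = 0.174 in the authors' deposited table, so Jund was not called. Jun, the founding member, was at 0.988 and 1.71 FPKM, and Junb, which can restrain Jun activity, at 0.414 and 0.703 FPKM, both untested. Their ratios were 1.73 and 1.70. With a pseudocount of 1 FPKM their log2 changes became 0.45 and 0.27, from 0.79 and 0.77, so these ratios depend on low values. Of the 12209 entries the authors left untested apart from those marked as low data, 95% were below 1.27 FPKM in their higher group, as Junb was, while Jun was above it. GENCODE M21 places Prdx2, at 170 and 174 FPKM, over Junb on the opposite strand, and the antisense genes Junos and Gm11175 over Jun and Jund. These values too may therefore hold reads of a partner. In the authors' deposited table, however, the intervals of Prdx2 and Junb do not overlap and lie 2.60 kb apart.

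**Figure D2:**
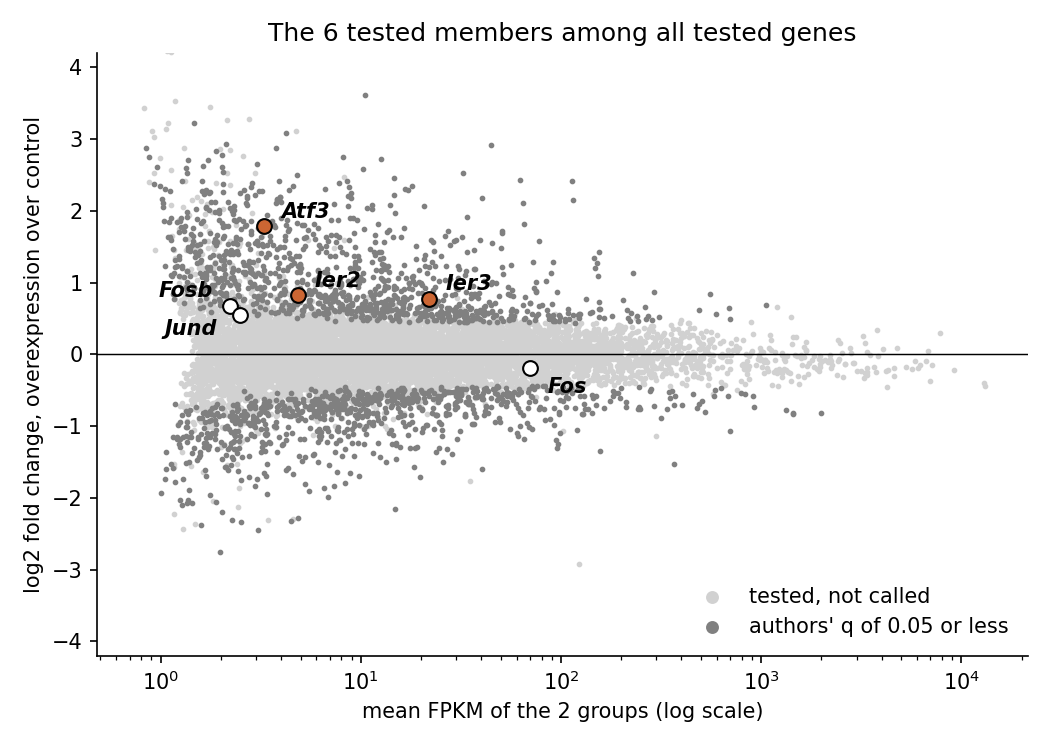
Log2 fold change (overexpression over control) against the mean FPKM of the 2 groups on a log scale, for all tested genes with a value above 0 in both groups, with genes called at an authors' q of 0.05 or less in dark grey. The 6 tested members are circled in black and filled orange where called higher. Atf3 stands at 1.79, Ier2 and Ier3 at 0.83 and 0.78, Fos at -0.19, and 7 genes lie beyond the vertical range.

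The levels of the members are unequal, so their sum mostly follows Fos. FPKM is scaled by transcript length, which allows levels to be set side by side. The control order was Fos, Ier3, Ier2, Jund, Fosb, Atf3, Fosl2, Jun, Junb and Fosl1, and which neighbours in this order differ beyond their spread cannot be said. With overexpression Atf3 stood above Jund and Fosb, and Jun above Fosl2. Summed over the 10 genes the level reached 103 FPKM in control samples and 115 FPKM with overexpression. Fos made up 73.0% of the sum in controls and 57.4% with overexpression, while Ier3 made up 15.8% and 24.2%. Without Fos, the other 9 members summed to 27.7 and 48.8 FPKM, a ratio of 1.76.

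The balance between partner families followed the same numbers. The 4 Fos family genes summed to 78.02 FPKM in controls and 70.3 FPKM with overexpression, and the 3 Jun family genes to 3.41 and 5.36 FPKM. Fos family transcript was therefore 22.9 times Jun family transcript in controls and 13.1 times with overexpression. These are ratios of combined RNA values with no error and no test, and they say nothing of protein. Fos carried the sum of its family, while Fosb, Fosl1 and Fosl2 together went from 3.09 to 4.35 FPKM, a ratio of 1.41. No gene of either family was called.

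**Figure D3:**
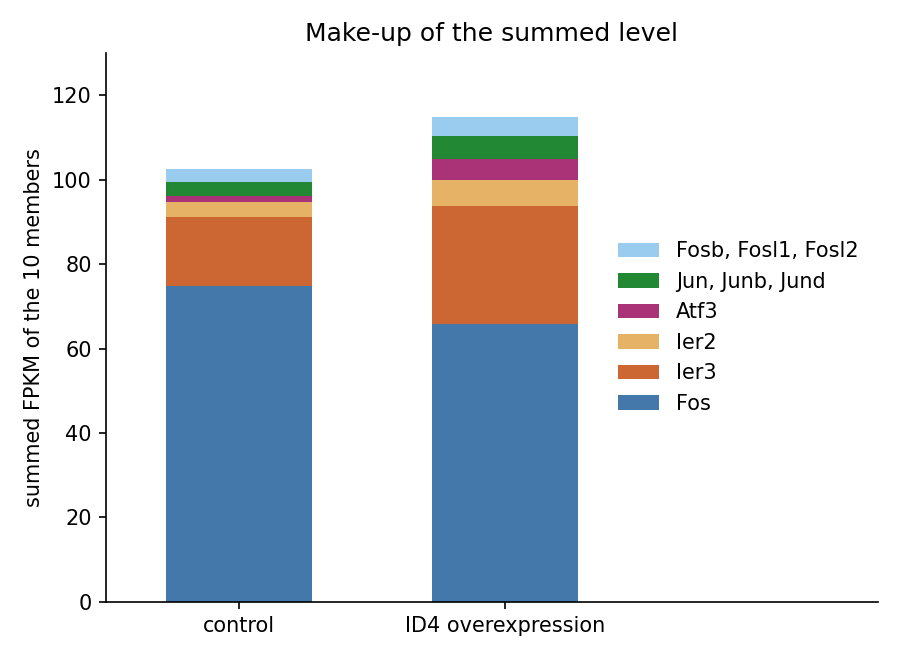
Summed FPKM of the 10 members in each group, stacked by gene or family, from combined group values without error bars. The bars reach 103 and 115 FPKM, with the Fos segment at 74.9 and 65.9 FPKM and the Ier3 segment at 16.2 and 27.8 FPKM.

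Higher calls were more frequent among tested genes with low control values. The shares below group genes by control FPKM, which is also the denominator of the fold. Genes low in both groups were mostly left untested, so tested genes at low control values are selected towards higher overexpression values. These shares therefore do not show a property of genes at low levels. Among 3084 tested genes with a control FPKM from 1 to under 5, the range that holds Fosb, Jund, Atf3 and Ier2, 12.5% were called higher and 7.10% lower, and the median log2 fold change was 0.07. Among 3778 tested genes from 5 to under 20, the range of Ier3, 8.79% were higher. Among 2781 genes from 20 to under 100, the range of Fos, 6.29% were higher and 7.59% lower.

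The genes beside the members on their chromosomes were called in both directions. The nearest tested entry on each side of each member gave 20 neighbours, of which 5 were called higher (25.0%, against 9.59% of all tested genes) and 1 lower. Their log2 fold changes had a median of 0.02 and ran from -0.68 to 0.85. Among the neighbours are 2 are themselves basic leucine zipper genes: Batf3, 61.4 kb from Atf3, was at 7.23 FPKM in controls and 5.31 FPKM with overexpression, and Batf, 209 kb from Fos, at 5.59 and 3.49 FPKM. Neither was called (q = 0.41 and 0.164 in the authors' deposited table). Flot1, which encodes a membrane raft protein, rose beside Ier3 from 5.73 to 10.3 FPKM (q = 0.00754 in the authors' deposited table). The other called neighbours were Tmed10, Vasp, Mysm1 and Lsm4, which were higher and lie next to Fos, Fosb, Jun and Jund, and Fibp, which was lower and lies next to Fosl1.

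Other immediate-early genes moved in both directions, with more rises than falls. Of 34 genes listed, 24 were tested. Of these, 8 were called higher (33.3%, against 9.59% of all tested genes) and 2 lower (8.33%, against 7.42%). Their median log2 fold change was 0.45. Cyr61, a matricellular protein gene, was at 1.40 and 6.24 FPKM (4.47-fold), and Klf6, a zinc finger factor, at 8.63 and 19.05 FPKM. Dusp6, whose product dephosphorylates ERK, was at 52.9 and 129 FPKM. Egr2 rose from 27.1 to 54.98 FPKM, 2.03-fold, and Egr1 from 18.9 to 33.6 FPKM. Dusp2, which encodes a nuclear phosphatase of MAP kinases, went the other way, from 4.76 to 1.87 FPKM. The authors' deposited table gives q = 0.000835 for Cyr61, Dusp6, Klf6, Egr2 and Egr1, and 0.00215 for Dusp2. The remaining calls were Zfp36, Zfp36l1 and Btg2, higher, and Klf4, lower. Zfp36 encodes tristetraprolin, which speeds the decay of immediate-early and cytokine transcripts; it was at 26.6 and 46.8 FPKM and was chosen after its values were seen.

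The transcripts of the AP-1 partners and of the kinases upstream showed few calls. Of 41 genes listed, 34 were tested, and the median log2 fold change was 0.03. Of the tested, 0 were higher (against 9.59% of all tested genes) and 2 lower (5.88%, against 7.42%). The 2 lower genes were Atf1, a CREB-related activator, from 22.8 to 12.7 FPKM, and Atf4, the main factor of the integrated stress response, from 74.6 to 51.8 FPKM. The authors' deposited table gives q = 0.000835 for Atf1 and 0.0229 for Atf4. Both are chromosome 15 genes, and with that chromosome left out the list had 0 calls at q of 0.05. Without chromosome 15, 15.3% of all tested genes were called and 9.81% were higher, against 17.0% and 9.59% with it. Lower calls were thus more frequent on chromosome 15 than elsewhere, and whether this bears on Atf1 and Atf4 was not tested. Atf7 and Mkl1, of the same list and chromosome, were not called. The JNK genes Mapk8, Mapk9 and Mapk10, whose products phosphorylate JUN, had log2 changes of -0.14, 0.05 and 0.20, and serum response factor, Srf, 0.19; none was called, and all 4 were chosen after their values were seen.

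Several genes commonly given as AP-1 targets rose. Of 28 listed, 19 were tested, and the median log2 fold change was 0.35. Of the tested, 7 were higher (36.8%, against 9.59% of all tested genes) and 0 lower (against 7.42%). Plaur, the urokinase receptor gene, was at 1.59 and 19.5 FPKM and Ccl2, a monocyte chemokine gene that overlaps Gm17268, at 10.5 and 78.8 FPKM. Il1b, an inflammatory cytokine gene, rose from 0.919 to 2.92 FPKM, and Vim, an intermediate filament gene of mesenchymal cells, from 2.93 to 7.03 FPKM. The matrix metalloproteinase genes Mmp9 and Mmp14 also rose, Mmp9 from 5.70 to 11.5 FPKM and Mmp14 from 1.11 to 2.18 FPKM. The authors' deposited table gives q = 0.000835 for Plaur, Ccl2, Vim and Mmp9, 0.0134 for Il1b and 0.0325 for Mmp14. The seventh call was Spp1. Several of these are also genes of macrophages or mesenchymal cells, and the list cannot separate the sources. Macrophage markers rose in the same comparison. Of the fibroblast and peritubular markers, 2 of 3 tested were called higher, and the third, Dcn, which is also in the present list, was not called. The metallothionein genes Mt1 and Mt2, which were the most abundant of the list and were chosen after their values were seen, were at 2064 and 1875 FPKM and at 1584 and 1786 FPKM, and neither was called.

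Heat shock and other dissociation stress genes had 1 call. Of 16 listed, 13 were tested, 1 was higher (7.69%, against 9.59% of all tested genes) and 0 were lower (against 7.42%). The members and the other immediate-early genes, which dissociation is also known to induce, were counted separately and are not covered by these numbers. The median log2 fold change was -0.01, and -0.02 relative to the median of all tested genes. The call was Dnajb1, a co-chaperone of HSP70, at 32.5 and 48.5 FPKM (q = 0.00986 in the authors' deposited table). The inducible HSP70 genes Hspa1a and Hspa1b, chosen after their values were seen, were at 0.416 and 0.444 FPKM and at 0.284 and 0.156 FPKM, and were not tested; Hspa1a overlaps Gm20481.

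**Figure D4:**
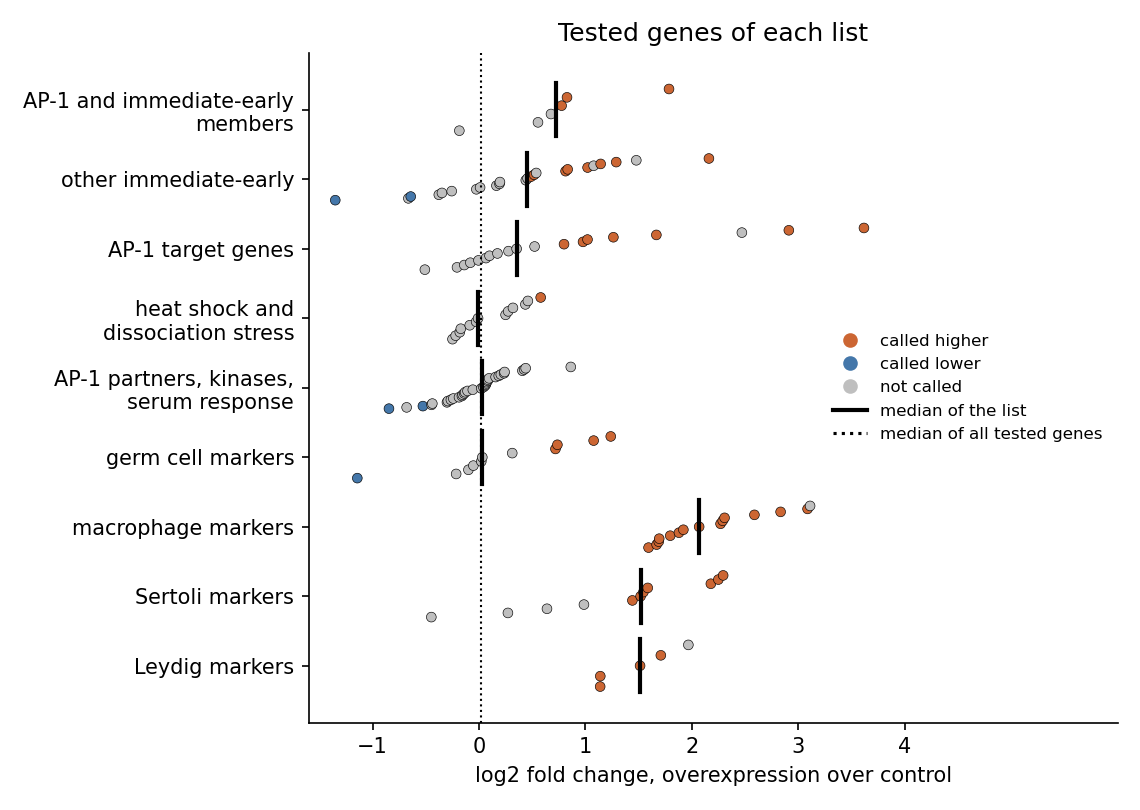
Log2 fold change (overexpression over control) of each tested gene by list, coloured by call, with the median of each list as a bar and the median of all tested genes, 0.01, as a dotted line. The medians are 0.73 for the members, 0.45 for other immediate-early genes, -0.01 for heat shock and dissociation stress genes and 2.07 for macrophage markers. The fibroblast and peritubular markers and the endothelial markers are not plotted.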

How the data were processed

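The deposited table gives FPKM per gene as 1 value per group, combined by the authors over 3 control and 3 ID4 overexpression samples, beside the p-value and q-value of the authors' test. The columns are those of Cuffdiff gene output, per the file headers. Per the submitters' processing notes, TopHat, Cufflinks and the mm9 build were used, with no versions. Trizol RNA was reverse transcribed with oligo d(T) primers, per the labels' protocols, so polyadenylated transcripts are favoured. Library scaling, strand use and depth are not given in the sources used here. Positions match GRCm38, not mm9: 21387 (99.1%) of 21585 symbols that GENCODE M21 lists once overlap its gene of that symbol. Starts are printed 1-based.

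Fold changes are overexpression over control FPKM, without a pseudocount or refit (Python 3.11.15, pandas 2.3.3, numpy 2.4.6). A call needs an authors' q of 0.05 or less with a completed test. The deposited q-values differed from a Benjamini-Hochberg adjustment of the p-values over 10990 tested entries by at most 4.77e-05. Of the tested entries, 5 were listed at 0 in a group and have no fold. The table has 1 emptied line. The members and lists were chosen with earlier results of these data known. All 10 members are named; each further list names up to 6 called genes with the largest change, or its 2 most abundant tested genes, and other genes are marked. The step that counts calls and takes ratios was checked on made-up values with known answers; this does not test the authors' q-values. Alternatives were q of 0.01 and 0.1, an absolute log2 fold change of at least 1, an FPKM of at least 1, no chromosome 15, pseudocounts of 1 and 0.1, and subtraction of the overall median. Sequences are from RefSeq (GRCm38.p6).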

Additional observations from a re-analysis of the deposited data

How the results depend on the processing

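The direction of each of the 10 members held under pseudocounts of 1 and 0.1 and after subtraction of the overall median, but 4 values moved by over 1.5 times, all in untested members with a pseudocount of 1: Jun to 0.45, Junb to 0.27, Fosl1 to 0.14 and Fosl2 to 0.08. The median of the 6 tested members was 0.57 and 0.71 with the pseudocounts, 0.71 after subtraction and 0.72 over all 10 members. The members called higher were 2 (Atf3 and Ier3) at an authors' q of 0.01 and 4 at 0.1 (with Fosb). With a log2 fold change of at least 1 also required, 1 (Atf3) was called higher. In each of these settings 0 members were lower. Over all tested genes, the shares called higher in the same 3 settings were 6.04%, 12.3% and 4.47%. At q of 0.01, calls over all tested genes were 1114, those of AP-1 partners 1 and of AP-1 targets 4. At q of 0.1, heat shock genes had 3 calls, and 22.1% of all tested genes were called. With the log2 minimum, calls were 726 over all genes, 5 for other immediate-early genes, 0 for AP-1 partners and 0 for heat shock genes. Without chromosome 15, AP-1 partners had 0 calls, since both called genes lie there, and 15.3% of all tested genes were called. An FPKM minimum of 1 moved no count.

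Leaving out each replicate was not run, since values per sample were not used here. No paired analysis was possible because the table holds 1 combined value per group. Low levels limit Jun, Junb, Fosl1 and Fosl2, which have no test.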

Other observations

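Some genes of the lists differed by large ratios without being called, and are given as values chosen after they were seen. Nfkbia, the NF-kB inhibitor gene induced early by cytokines, was at 3.87 FPKM in controls and 10.8 FPKM with overexpression, with q = 0.613 in the authors' deposited table, on an interval of 212 kb where GENCODE M21 gives the gene 3.24 kb. Timp1, a metalloproteinase inhibitor gene that overlaps Syn1 and whose interval spans 72.4 kb in the table, was at 2.52 and 13.98 FPKM, with q = 0.138 in the authors' deposited table. By contrast Btg2, an antiproliferative early gene, was called at 45.7 and 64.2 FPKM with q = 0.0271 in the authors' deposited table. Values per sample were not used here, so the spread behind each was not seen. Among untested partners of AP-1, Maf was at 0.373 and 1.59 FPKM and Jdp2, a repressor that binds Jun proteins, at 0.0337 and 0.393 FPKM.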
